A study of Caenorhabditis elegans with 12 samples.

Results

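The transcriptome of N2 worms after adult-onset knockdown of *rpia-1*, the gene of ribose-5-phosphate isomerase, was compared with that of N2 worms on empty vector (EV). Genes entered the comparison when they averaged 1 TPM or more (transcript level scaled to library size and divided by transcript length) in the 6 N2 libraries, which kept 10626 of the 46904 genes in the deposited tables and 6 of the 12 libraries of the series. Of the 10626 genes, 9987 are protein coding, 300 are pseudogenes, 127 are other non-coding RNAs and 120 are piRNA genes in the Ensembl 115 annotation (assembly WBcel235), in which 10619 of them were found.

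Both groups were the wild-type strain N2, which has no tissue restriction of RNAi. The N2 *rpia-1* (RNAi) Day 0 group was fed HT115 (DE3) bacteria making *rpia-1* double-stranded RNA from adult day 0, and the N2 EV group was fed the same bacteria with the empty vector. There were 3 libraries a group, each from a separately collected sample of at least 500 whole worms taken on adult day 5. The remaining 6 libraries came from TU3401, a strain with the transgene uIs69 that expresses the RNA channel SID-1 under the neuronal *unc-119* promoter and mCherry under the pharyngeal *myo-2* promoter, with knockdown from the embryo, and they were used only for a test of the difference between the strains; their labels give day 0, whereas the study's methods describe collection on day 5 for all samples, so their age is uncertain.

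Ribose-5-phosphate isomerase interconverts ribulose-5-phosphate and ribose-5-phosphate in the non-oxidative branch of the pentose phosphate pathway. The oxidative branch makes NADPH, which serves lipid synthesis and the thiol antioxidants, and ribose-5-phosphate feeds nucleotide synthesis. In adult worms the intestine is the main site of fat storage, digestion and yolk production, and it exports yolk proteins to the germline. Since whole worms were sequenced, fewer cells of a type and less RNA per cell cannot be told apart.

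The knockdown was measured first in the targeted gene. *rpia-1* (WBGene00015101, chromosome III, 7123128 to 7124335, plus strand) had 27.5, 32.8 and 30.2 TPM in knockdown replicates 1 to 3, against 128, 115 and 120.4 TPM in EV replicates 1 to 3. Every knockdown library was far below every EV library, and the spread within each group was small. The mean was 30.2 ± 2.68 TPM under knockdown and 121 ± 6.50 TPM on EV (SD, n = 3 each), a ratio of 0.249. The difference was -1.97 on the log2(TPM + 1) scale (SE 0.08, adjusted p = 0.00053 by limma with Benjamini-Hochberg adjustment over all 10626 genes), and it was -1.91 (SE 0.06, adjusted p = 0.0002) when knockdown replicate 1, a library that stood apart, was left out. A two-sided exact permutation test of this single gene gave p = 0.1, the smallest value that 3 against 3 libraries allow. It was the only gene that passed adjusted p under 0.05 over the 6 libraries, which is 0.00941% of the genes tested on the lower side and 0% on the higher side. At unadjusted p under 0.05 there were 136 lower genes (1.28%) and 40 higher genes (0.376%).

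Most other enzymes of the pathway were measured with little scatter, and none showed a difference of this kind. Of 13 names on the pathway list, 10 were tested, and the 9 besides *rpia-1* all overlapped between the groups, had log2 differences between -0.14 and 0.08 (-0.33 to 0.06 without knockdown replicate 1) and did not reach unadjusted p under 0.05. The values -0.14 and -0.33 were those of F07A11.5, a low and more scattered gene. It had 4.41, 3.04 and 2.24 TPM under knockdown, against 3.04, 4.55 and 3.25 TPM on EV. In the oxidative branch, *gspd-1*, the glucose-6-phosphate dehydrogenase, had 76.5, 85.6 and 80.2 TPM under knockdown, against 87, 79.9 and 82.2 TPM on EV. T25B9.9, the 6-phosphogluconate dehydrogenase, had 162, 157 and 162 TPM under knockdown, against 158, 161 and 160.2 TPM on EV. Both NADPH-producing steps thus lay inside the EV range or within a few TPM of it. In the non-oxidative branch, *tkt-1*, the transketolase, had 313, 358 and 339 TPM under knockdown, against 355, 352 and 352 TPM on EV. *tald-1*, the transaldolase, had 155, 170.1 and 156 TPM under knockdown, against 159.7, 166 and 156 TPM on EV. F08F8.7, the ribulose-phosphate 3-epimerase that shares its substrate with RPIA-1, had 79.5, 77.5 and 75.4 TPM under knockdown, against 69.2, 74.3 and 76.1 TPM on EV. Its knockdown replicate 3 was within the EV range and the other knockdown libraries were slightly above it. R151.2, a phosphoribosyl pyrophosphate synthetase that uses ribose-5-phosphate, had 293, 311 and 299 TPM under knockdown, against 311, 313 and 288 TPM on EV.

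**Figure D1:**
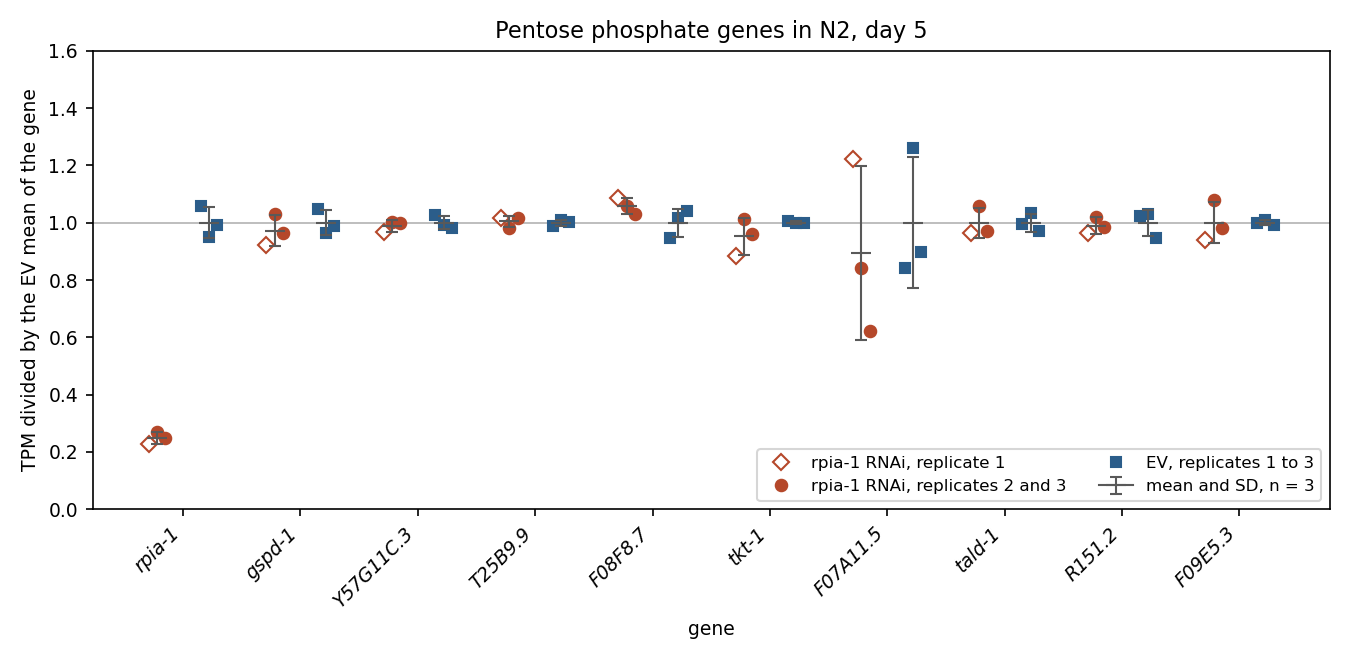
Levels of the pentose phosphate pathway genes in each N2 library, as TPM divided by the EV mean of the gene, with the 3 knockdown libraries left of the 3 EV libraries for each gene (open diamond, knockdown replicate 1; bars, mean and SD of 3 libraries). *rpia-1* sits at a mean ratio of 0.249, and the groups of each of the other 9 genes overlap.

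Knockdown replicate 1 stood apart from the other 5 libraries. It listed 22388 genes above 0 TPM, whereas the others listed 17777 to 19135. Across genes its log2 values correlated with the other libraries at r of 0.971 to 0.983, and no pair among the other 5 was under 0.991; these are descriptions across genes, which are not independent. Set against the mean of the other libraries of its group, it was at least 1 log2 unit higher in 1417 genes (13.3%) and lower in 8, while for EV replicate 3, the EV library with the most such genes on the higher side, these numbers were 100 and 29. Depth in reads is unknown, since the tables hold no counts. The fit was therefore made with all 6 libraries and again without knockdown replicate 1. The filter on mean TPM used all 6 libraries, so some genes passed it only through replicate 1. With the filter taken over the other 5 libraries, 10293 genes passed. The number of genes high in replicate 1 is in part set by this filter.

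Of the 1417 genes high in knockdown replicate 1, 47 were on the lists of collagens, moulting and embryonic regulators. The 9209 other genes tested held 61 such genes, and most of the 1417 were on none of these lists. *dpy-17*, *hch-1* and *sqt-3* were chosen for their high value in replicate 1, which is given as a description. *dpy-17*, a cuticle collagen, had 159.7, 13.1 and 21.4 TPM in knockdown replicates 1 to 3, against 17.5, 25.3 and 61.3 TPM in EV replicates 1 to 3. *hch-1*, the protease that digests the eggshell at hatching, had 75.4, 7.33 and 8.85 TPM under knockdown, against 6.34, 9.91 and 28.4 TPM on EV. *nhr-25*, a nuclear receptor of epidermal development and moulting, had 12.9, 2.01 and 1.99 TPM under knockdown, against 2.07, 3.03 and 5.47 TPM on EV. In all of these, EV replicate 3 was the highest of the EV libraries. Over the 1417 genes, EV replicate 3 was the highest EV library in 993 (70.1%), against 3112 of the 9209 other genes (33.8%). Likewise, *sqt-3*, another cuticle collagen, had 136, 14 and 16.2 TPM under knockdown, against 13.4, 19.9 and 47.7 TPM on EV. Whether these libraries held different shares of embryos, larvae or other material was not tested.

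Lists of genes by tissue showed the same order of libraries. Their tested members passed a filter that counts replicate 1, which in part favours high values in that library. The median of 54 collagens relative to the EV mean was 0.95 in knockdown replicate 1, -0.07 in replicate 2 and 0.30 in replicate 3 on the log2 scale. The 33 genes of the moult and apical matrix had medians of 0.92, -0.26 and -0.10, the 21 embryonic regulators 0.73, -0.13 and -0.03, and the 60 neuropeptide and insulin-like genes 1.18, -0.27 and 0.09 in the same libraries. By contrast, the 31 germline P granule and maternal RNA-binding genes had a median of -0.21 in knockdown replicate 1, 0.05 in replicate 2 and 0.02 in replicate 3, and none of the 31 was higher in replicate 1 than in the mean of the other knockdown libraries. Major sperm protein genes were nearly silent, and none of the 35 listed had a mean of 1 TPM.

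**Figure D2:**
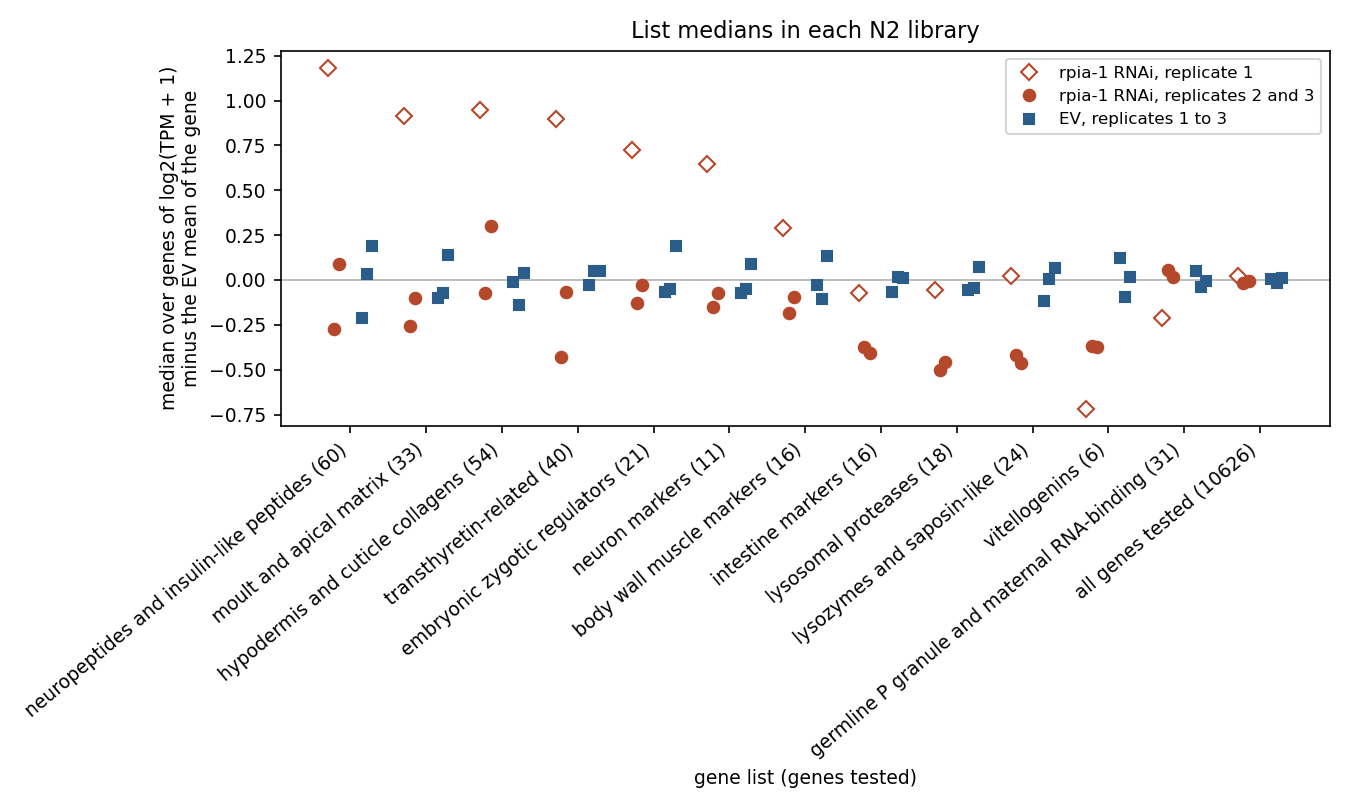
Median, over the tested genes of each list, of log2(TPM + 1) minus the EV mean of the gene, in each of the 6 N2 libraries, knockdown libraries left of EV libraries. Knockdown replicate 1 is the highest library in the collagen (0.95), moult (0.92) and embryonic (0.73) lists and the lowest in the germline list (-0.21).

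The yolk protein genes were lower under knockdown in every library, knockdown replicate 1 included. Vitellogenins are made in the adult intestine and carry lipid to the oocytes. *vit-2* (chromosome X, 5101042 to 5106169), which encodes a major yolk protein, had 653, 664 and 641 TPM under knockdown, against 1032, 851 and 962 TPM on EV. *vit-6* (chromosome IV, 8261157 to 8266459), the most divergent member, had 463, 484 and 481 TPM under knockdown, against 777, 619 and 743 TPM on EV. The 3 knockdown libraries of both genes were close together and below all EV libraries, which were more spread. The differences were -0.53 (SE 0.07, adjusted p = 0.87) for *vit-2* and -0.58 (SE 0.09, adjusted p = 0.98) for *vit-6* on the log2 scale by limma, and -0.53 (adjusted p = 0.089) and -0.56 (adjusted p = 0.12) without knockdown replicate 1, so neither passed the adjustment over all genes.

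The remaining vitellogenins had the same order. *vit-5* had 619, 689 and 712 TPM under knockdown, against 1092, 833 and 975 TPM on EV. *vit-1* had 35.8, 52.5 and 50.5 TPM under knockdown, against 63.0, 62.4 and 63.7 TPM on EV. *vit-3* had 69.6, 117 and 116 TPM under knockdown, against 149, 139 and 124 TPM on EV. Knockdown replicate 3 of *vit-3* was thus just under the lowest EV library, and replicate 1 was far lower. *vit-4* had 93.9, 149.9 and 149 TPM under knockdown, against 188, 173 and 172 TPM on EV. *vit-1* to *vit-5* are near-identical in sequence in part, so reads may have been split among them and single values are uncertain; the summed level of the 6 genes was 1933, 2156 and 2150 TPM under knockdown, against 3301, 2677 and 3039 TPM on EV.

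None of the 6 vitellogenins overlapped between the groups, a pattern that 3.15% of all genes showed on the lower side (335 genes) and 1.96% on the higher side (208 genes). With FPKM values in place of TPM these counts were 522 and 30. All 6 reached unadjusted p under 0.05 in both comparisons, against 1.28% and 6% of all genes lower, and none passed the adjustment. Their median difference was -0.49 over the 6 libraries and -0.37 without knockdown replicate 1, where the median over all genes was -0.00 and -0.01. Of 18 genes that receive yolk and build the eggshell, 16 were on the lower side over the 6 libraries (median -0.05), against 50.9% of all genes. Without replicate 1, 15 were on the higher side (median 0.03), against 45.9% of all genes. None of the 18 reached unadjusted p under 0.05 in either comparison. *perm-4*, of the eggshell permeability barrier, had 1094, 1064 and 1108 TPM under knockdown, against 1227, 1133 and 1157 TPM on EV, slightly below EV in every library. *egg-1*, an oocyte receptor needed for fertilization, had 718, 846 and 840.3 TPM under knockdown, against 811, 821 and 758 TPM on EV.

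**Figure D3:**
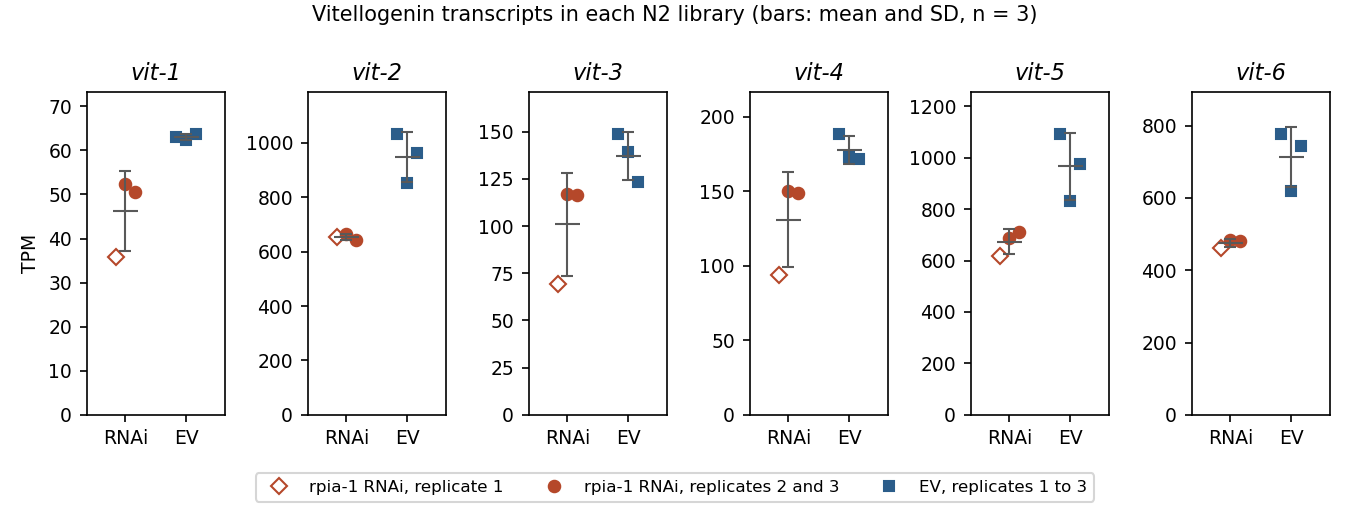
TPM of the 6 vitellogenin genes in each N2 library, *rpia-1* RNAi left of EV in each panel (open diamond, knockdown replicate 1). All 3 knockdown libraries lie below all 3 EV libraries in every panel, for example 641 to 664 TPM against 851 to 1032 TPM for *vit-2*.

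Without knockdown replicate 1, 17 genes passed adjusted p under 0.05, all of them lower (0.16% of genes tested) and none higher (0%). At unadjusted p under 0.05 there were 638 lower genes (6%) and 91 higher genes (0.856%), and after setting the library medians equal these were 488 and 456. The same test on FPKM, in which EV replicate 2 is scaled by a different factor from the other libraries (TPM to FPKM 1.39, against 1.84 to 1.93), called 41 genes (38 lower), of which *rpia-1* alone was among the 17, and with equal library medians 4 passed. The calls also rested on few libraries: leaving out knockdown replicate 2 as well left 2 calls and leaving out knockdown replicate 3 left 1, in each case with a single knockdown library whose spread is taken from EV. Leaving out EV replicate 1, 2 or 3 left 7, 5 and 14 calls, of which 4, 4 and 6 were among the 17. Besides *rpia-1*, the 16 genes had log2 differences of -0.68 to -0.38 without knockdown replicate 1 and of -0.54 to -0.21 with it, where each had an adjusted p of 1.00. Knockdown replicate 1 was the highest knockdown library in 16 of the 16 and was below the EV mean in 10.

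Of these calls 4 were degradative enzymes of the lysosome, with adjusted p from the lowest of the 16 (*lipl-5*) to the highest (*cpr-4*). *lipl-5* (chromosome V, 385746 to 387740), a lysosomal acid lipase that is induced on fasting, had 205, 153 and 151.5 TPM under knockdown, against 243, 242 and 251 TPM on EV. It fell by 0.68 on the log2 scale without replicate 1 (SE 0.04, adjusted p = 0.0031), and its groups did not overlap with all 6 libraries either. *cpr-6* (chromosome X, 6607207 to 6609045), a cathepsin B-like cysteine protease, had 173, 143 and 140.0 TPM under knockdown, against 209, 209 and 209.9 TPM on EV. It fell by 0.56 without replicate 1 (SE 0.04, adjusted p = 0.0047). Again every knockdown library was below every EV library, and the EV libraries were almost equal. Its paralog *cpr-4* had 159, 120.2 and 106 TPM under knockdown, against 163, 176 and 185 TPM on EV, and *cpr-5* had 107, 64 and 68.5 TPM under knockdown, against 90.9, 96.3 and 96.3 TPM on EV. *cpr-4* fell by 0.62 (adjusted p = 0.048) and *cpr-5* by 0.51 (adjusted p = 0.039) without replicate 1. In *cpr-5* knockdown replicate 1 was the highest of the 6 libraries, so the call depends on its absence.

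Further calls were enzymes of lipid metabolism. *fat-6*, a stearoyl-CoA desaturase that makes oleate, had 181, 140.2 and 136 TPM under knockdown, against 175, 181 and 183 TPM on EV. *hacd-1*, a hydroxyacyl-CoA dehydrogenase, had 68.2, 55.5 and 58.1 TPM under knockdown, against 79.0, 75.7 and 75.7 TPM on EV. *pmt-1*, a methyltransferase of phosphocholine synthesis, had 73.5, 42.7 and 41.7 TPM under knockdown, against 60.9, 57.7 and 58.4 TPM on EV. Without replicate 1 these fell by 0.38, 0.43 and 0.47 on the log2 scale, and only *hacd-1* was below EV in all 3 knockdown libraries.

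Others were secreted or defence-related. *thn-2*, of the thaumatin family, had 327, 223 and 219.7 TPM under knockdown, against 343, 325 and 385 TPM on EV. *clec-50*, a C-type lectin, had 92.3, 65.8 and 62.7 TPM under knockdown, against 93.8, 95.5 and 107 TPM on EV. *dod-6*, named as a gene downstream of the FOXO factor DAF-16, had 162, 120.4 and 129 TPM under knockdown, against 178, 173 and 186 TPM on EV. In each of them knockdown replicate 1 lay below or close to the lowest EV value and the other knockdown libraries were well below. They fell by 0.66, 0.61 and 0.52 without replicate 1. *scl-2*, a secreted SCP-like protein, had 93.0, 80.8 and 78.6 TPM under knockdown, against 108, 111 and 118 TPM on EV, and fell by 0.49. *ttr-46*, a transthyretin-related protein, had 78.4, 53.3 and 50.1 TPM under knockdown, against 73.0, 75.7 and 70.1 TPM on EV, and fell by 0.49.

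Of the last 4 calls, F54D5.3 and T21H3.1 have only sequence names, and LLC1.2 and F56C9.7 are given the symbols *nspg-9* and *nspg-6* in Ensembl. F54D5.3 had 162, 106 and 103 TPM under knockdown, against 167, 158 and 163 TPM on EV (-0.63 without replicate 1, adjusted p = 0.0047). T21H3.1 had 123, 102 and 94.5 TPM under knockdown, against 137, 136 and 137 TPM on EV, and LLC1.2 had 48.4, 31.3 and 30.7 TPM under knockdown, against 44.1, 49.2 and 49.4 TPM on EV. F56C9.7 had 57, 38.9 and 40.6 TPM under knockdown, against 58.3, 56.7 and 55.0 TPM on EV. Of these 4, only T21H3.1 was below EV in all 3 knockdown libraries. Just outside the threshold were T20D3.2 (adjusted p = 0.054), *ilys-5*, an invertebrate-type lysozyme, and C42D4.1 (adjusted p = 0.056 for both).

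**Figure D4:**
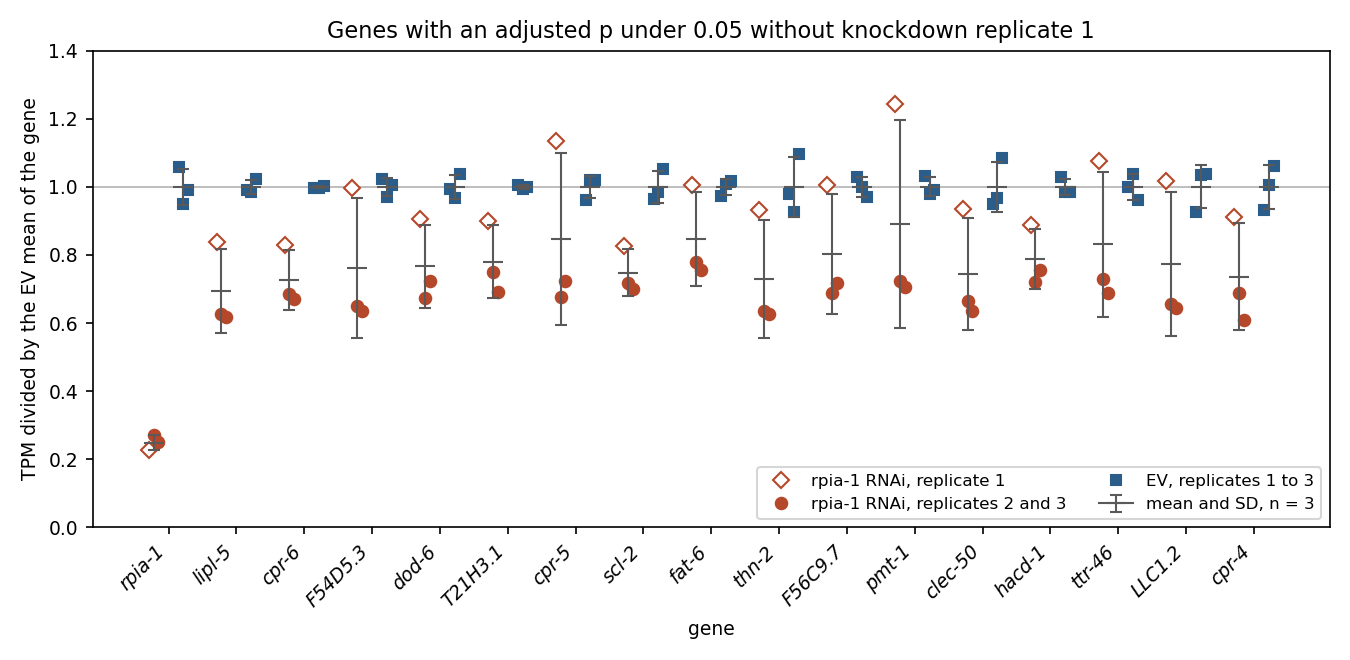
TPM divided by the EV mean in each N2 library for the 17 genes with adjusted p under 0.05 when knockdown replicate 1 is left out, knockdown left of EV (open diamond, knockdown replicate 1). In the 16 genes besides *rpia-1*, knockdown replicates 2 and 3 are below EV and replicate 1 is the highest knockdown library.

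The lysosomal proteases shared this direction as a list. Of 28 cathepsin and aspartic protease genes, 18 were tested and all 18 were on the lower side in both comparisons. A gene was on the lower side for 50.9% of all genes over the 6 libraries and 54.1% without replicate 1, and on the higher side for 49.1% and 45.9%. Unadjusted p under 0.05 was reached by 9 over the 6 libraries and by 16 without knockdown replicate 1, against 1.28% and 6% of all genes, and 3 passed the adjustment without it (*cpr-4*, *cpr-5* and *cpr-6*). The median difference was -0.34 over the 6 libraries and -0.47 without replicate 1, with medians of -0.06, -0.50 and -0.46 in knockdown replicates 1 to 3. Without replicate 1, 17 of the 18 did not overlap with EV, against 15.4% of all genes on the lower side and 6.82% on the higher side. *cpl-1*, cathepsin L, had 154, 136 and 127 TPM under knockdown, against 169, 186 and 184 TPM on EV. *asp-1*, an intestinal aspartic protease, had 74.6, 68.9 and 65.1 TPM under knockdown, against 97.6, 83.6 and 87.5 TPM on EV. Both were below EV in all 3 knockdown libraries, with adjusted p of 0.057 and 0.13 without replicate 1. Summed over the list the level was 2125, 1590 and 1553 TPM under knockdown, against 2207, 2177 and 2476 TPM on EV. Of 4 lysosomal lipases tested, 2 were lower at unadjusted p under 0.05 in both comparisons, *lipl-5* and *lipl-2*. *lipl-2* had 3.09, 2.30 and 2.26 TPM under knockdown, against 4.56, 4.60 and 4.26 TPM on EV, below EV in every library. *lipl-1* and *lipl-7* overlapped EV, and *lipl-7* had 13, 4.28 and 4.49 TPM under knockdown, against 4.52, 4.17 and 6.38 TPM on EV.

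The 20 genes of lysosomal membrane proteins and other hydrolases had a median difference of -0.02 over the 6 libraries and -0.04 without replicate 1. Of them 1 and 3 were lower at unadjusted p under 0.05, against 1.28% and 6% of all genes, and 5 and 7 were below EV without overlap, against 3.15% and 15.4%. *asah-2*, an acid ceramidase homologue, had 12.6, 8.04 and 9.79 TPM under knockdown, against 13.8, 12.6 and 14.7 TPM on EV. *nuc-1*, the lysosomal DNase, had 73.9, 37.7 and 42.0 TPM under knockdown, against 54.1, 51.1 and 62.6 TPM on EV. *gba-4*, a glucocerebrosidase homologue, had 3.76, 4.32 and 3.08 TPM under knockdown, against 5.04, 5.66 and 5.01 TPM on EV. Without replicate 1 their log2 differences were -0.57, -0.47 and -0.42, and of these only *gba-4* was below EV in all 3 knockdown libraries. The 21 subunits of the vacuolar ATPase, the proton pump that acidifies the lysosome, had medians of 0.04 and 0.02. The single subunit at unadjusted p under 0.05 was *vha-6*, the intestinal form, with 16.3, 13.2 and 12.6 TPM under knockdown, against 15.9, 16.6 and 15.6 TPM on EV.

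Genes of the gut lining and of antimicrobial defence lay with the proteases. Over all genes, 50.9% were on the lower side with the 6 libraries and 54.1% without replicate 1. The shares lower at unadjusted p under 0.05 were 1.28% and 6%. Of 24 lysozyme and saposin-like genes, 22 were on the lower side without knockdown replicate 1 and 16 reached unadjusted p under 0.05, with 6 over all 6 libraries and none after adjustment; the medians were -0.28 and -0.45 with and without it. *lys-4*, a lysozyme, had 46.9, 11.7 and 11.3 TPM under knockdown, against 19.7, 20.7 and 26.2 TPM on EV. *spp-1*, a saposin-like antimicrobial protein of the intestine, had 42.7, 30.3 and 27.1 TPM under knockdown, against 41.3, 46.8 and 48.7 TPM on EV. For both, knockdown replicate 1 was within or above the EV values while replicates 2 and 3 were below all of them. Among 48 C-type lectins, 33 were on the lower side over the 6 libraries and 35 without replicate 1, and 6 and 17 reached unadjusted p under 0.05, with medians of -0.17 and -0.25. *clec-63* had 139, 115 and 128 TPM under knockdown, against 167, 165 and 181 TPM on EV, below EV in every library. Of 7 *dod* genes, 6 were on the lower side, with a median of -0.39 over the 6 libraries and -0.52 without replicate 1.

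The intestine markers, a list of 18, had the same direction as the genes above. Of 16 tested, 15 were on the lower side without replicate 1, against 54.1% of all genes. Unadjusted p under 0.05 was reached by 9, against 6% of all genes lower, and none passed the adjustment. The medians were -0.26 over the 6 libraries and -0.39 without replicate 1. The summed level of the list was 513, 466 and 463 TPM under knockdown, against 555, 540 and 554 TPM on EV. *act-5*, the actin of the intestinal microvilli, had 29.0, 22.3 and 23.7 TPM under knockdown, against 28.9, 32.8 and 32.3 TPM on EV. The metallothionein *mtl-2*, made in the intestine, had 39.6, 17.7 and 18 TPM under knockdown, against 31.4, 49.1 and 34.5 TPM on EV. The part of intestinal RNA content in the lower levels of yolk, lysosome and defence genes was not tested.

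For markers of muscle, neurons and the germline the sign depended on replicate 1. Without it, 54.1% of all genes were on the lower side and 45.9% on the higher side. At unadjusted p under 0.05, 6% of all genes were lower without it. Of 16 body wall muscle genes, 16 were on the lower side without knockdown replicate 1, with a median of -0.14, and 1 reached unadjusted p under 0.05. With all 6 libraries their median was 0.01, and their summed level was 582, 279 and 317 TPM under knockdown, against 318, 306 and 383 TPM on EV. Of 11 neuron genes, 10 were on the lower side without replicate 1, with a median of -0.09, and the median over the 6 libraries was 0.11. *rab-3*, a synaptic vesicle GTPase, had 4.10, 0.597 and 1.4 TPM under knockdown, against 2.04, 1.67 and 2.52 TPM on EV. *unc-64*, syntaxin, had 17.1, 8.16 and 8.26 TPM under knockdown, against 9.55, 11.51 and 11.8 TPM on EV. These were the 2 neuron genes at unadjusted p under 0.05 without replicate 1 (-0.64 and -0.37), and in both replicate 1 was above every EV library. *snb-1*, synaptobrevin, was the exception on the higher side, with 445, 406 and 416 TPM under knockdown, against 412, 378 and 386 TPM on EV. Of the 31 germline P granule and maternal genes, 29 were on the higher side without replicate 1, with a median of 0.04 and none at unadjusted p under 0.05, and the median was -0.05 with it. Of 27 synaptonemal and meiosis genes, 25 were on the higher side without replicate 1, with a median of 0.03. When the library medians were set equal, the medians without replicate 1 were -0.34 for intestine, -0.41 for lysosomal proteases, -0.09 for muscle and 0.09 for germline.

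**Figure D5:**
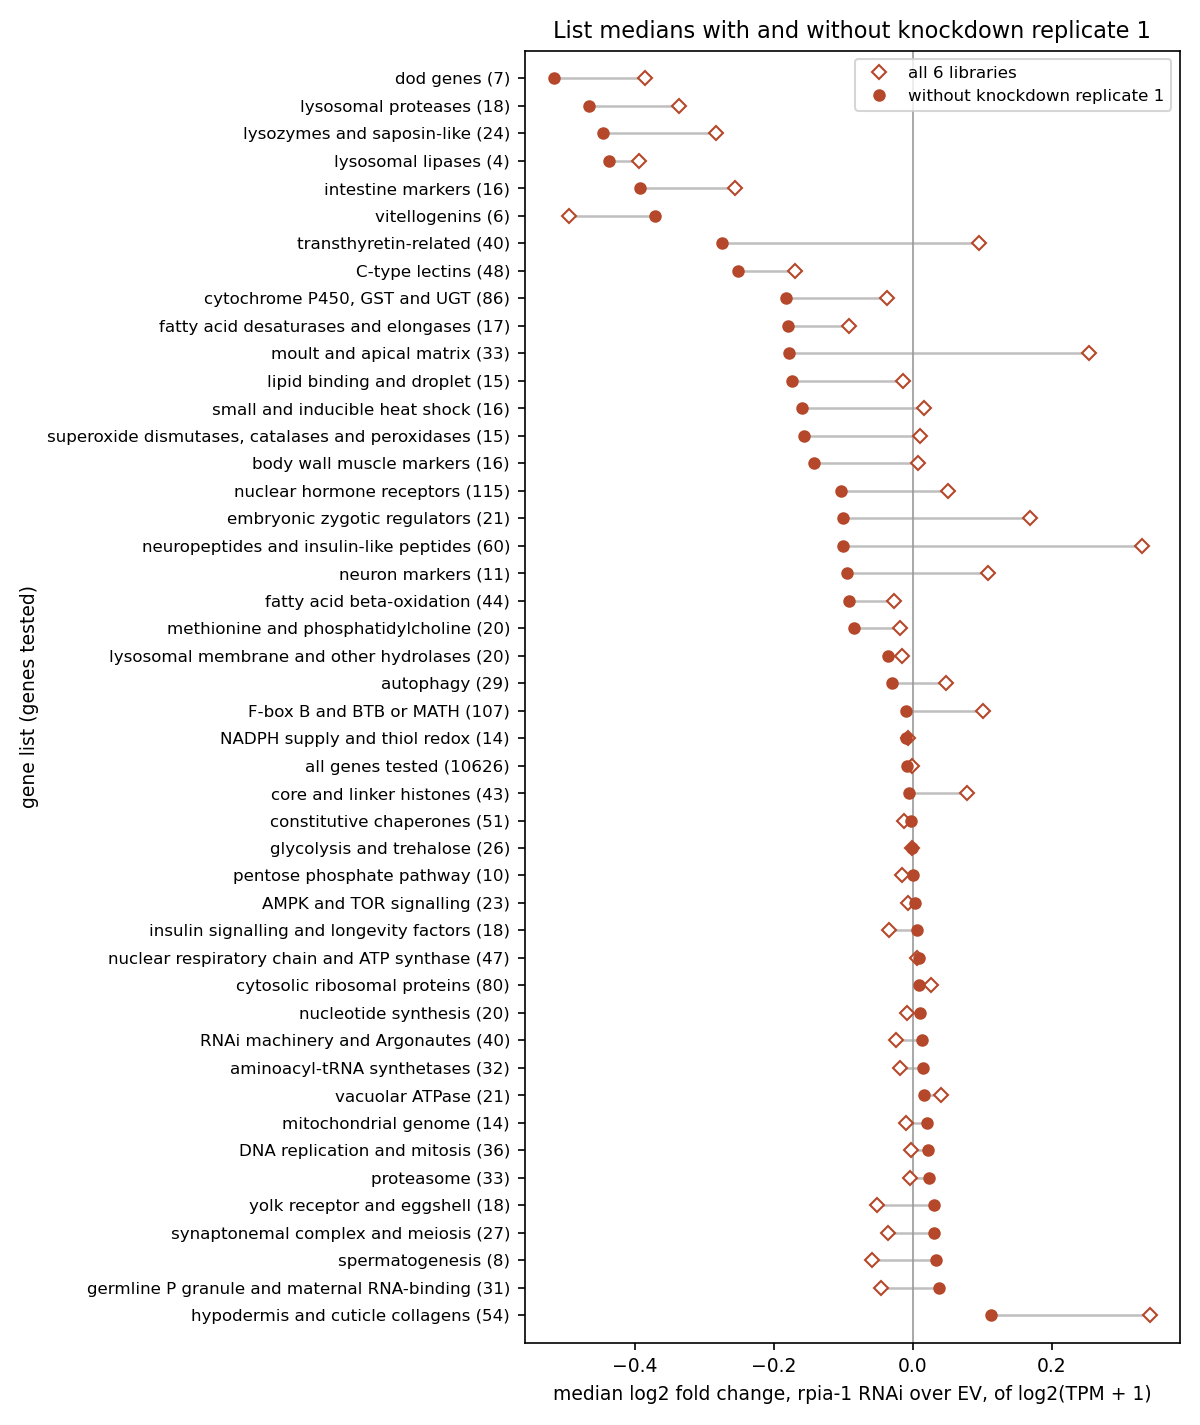
Median log2 difference, knockdown minus EV, over the tested genes of each list, with all 6 libraries (open diamond) and without knockdown replicate 1 (filled circle). Vitellogenins (-0.49 and -0.37), lysosomal proteases (-0.34 and -0.47) and intestine markers (-0.26 and -0.39) lie below 0 in both, whereas the neuropeptide list is at 0.33 with replicate 1 and at -0.10 without it.

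In lipid metabolism, of 17 desaturases and elongases, 16 were on the lower side without replicate 1, against 54.1% of all genes. Unadjusted p under 0.05 was reached by 9 (52.9%, against 6% of all genes lower), with a median of -0.18. Over the 6 libraries it was reached by 1 (5.88%, against 1.28%), with a median of -0.09. *fat-2*, which desaturates oleate to linoleate, had 663, 327 and 358 TPM under knockdown, against 470.2, 449 and 534 TPM on EV. *elo-5*, an elongase of branched-chain fatty acids, had 53.0, 41.0 and 35.9 TPM under knockdown, against 52.5, 58.2 and 58.2 TPM on EV. For both, replicates 2 and 3 were below every EV library and replicate 1 was not. *nhr-80*, a nuclear receptor that acts on the fatty acid desaturases, had 2.38, 1.27 and 1.23 TPM under knockdown, against 2.47, 2.94 and 2.45 TPM on EV. Among 44 genes of fatty acid beta-oxidation 3 (6.82%) were lower at unadjusted p under 0.05 over the 6 libraries and 10 (22.7%) without replicate 1. The shares of all genes were 1.28% and 6%, and the medians of the list were -0.03 and -0.09. *acs-2*, a mitochondrial acyl-CoA synthetase, had 17.6, 9.74 and 7.94 TPM under knockdown, against 26.8, 25.2 and 15.4 TPM on EV. *ech-7*, of the enoyl-CoA hydratase family, had 19.9, 17.4 and 15 TPM under knockdown, against 23.3, 26.1 and 27.3 TPM on EV. *ech-7* did not overlap between the groups, and *acs-2* overlapped only through knockdown replicate 1. The log2 difference of *acs-2* was -0.91 (SE 0.32, adjusted p = 1.00) over the 6 libraries and -1.22 (SE 0.23, adjusted p = 0.16) without replicate 1, larger in size than that of any called gene besides *rpia-1*, with unequal EV libraries. *icl-1*, the bifunctional glyoxylate cycle enzyme, had 33.4, 19.2 and 22.4 TPM under knockdown, against 33.2, 33.0 and 27.6 TPM on EV. *smd-1*, the S-adenosylmethionine decarboxylase of polyamine synthesis, had 19.2, 20.7 and 20.5 TPM under knockdown, against 25.7, 24.8 and 27 TPM on EV, below EV in every library.

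Among the routes that lie next to the pentose phosphate pathway, none of 14 genes of NADPH supply and thiol redox reached unadjusted p under 0.05 in either comparison, with a median of -0.01 in both. *idh-1*, the cytosolic NADP-dependent isocitrate dehydrogenase, had 413, 403 and 416 TPM under knockdown, against 396, 397 and 412 TPM on EV. *gcs-1*, the first enzyme of glutathione synthesis, had 103, 106 and 105 TPM under knockdown, against 99.3, 100.0 and 102 TPM on EV. The groups of *gcs-1* were just apart, at a log2 difference of 0.05 (SE 0.04). Of 20 nucleotide synthesis genes none reached unadjusted p under 0.05 over the 6 libraries and 3 did without replicate 1, all of them in purine synthesis and lower, against 6% of all genes. They were *atic-1*, with 8.30, 4.41 and 5.28 TPM under knockdown, against 7.90, 7.13 and 8.13 TPM on EV, and *pacs-1* and *pfas-1*, at -0.47 and -0.46 on the log2 scale without replicate 1. Of 26 glycolysis and trehalose genes 2 were lower at unadjusted p under 0.05 without replicate 1 and none over the 6 libraries. The 2 are 7.69% of the list, near the 6% of all genes. The list of superoxide dismutases, catalases and peroxidases, which also holds the metallothioneins, had 15 genes tested. At unadjusted p under 0.05 without replicate 1, 4 (26.7%) were lower and 1 higher, against 6% and 0.856% of all genes. None reached it over the 6 libraries. The medians were -0.16 without replicate 1 and 0.01 with it. *mtl-1* had 178, 84.0 and 89.8 TPM under knockdown, against 142, 135 and 171 TPM on EV. *ctl-2*, the peroxisomal catalase, had 10.9, 7.06 and 8.29 TPM under knockdown, against 9.82, 12.2 and 13.1 TPM on EV. Replicates 2 and 3 of both were below every EV library, at -0.77 and -0.54 on the log2 scale without replicate 1, and replicate 1 was not.

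The study tied autophagy, AMPK and TOR signalling to the longevity of *rpia-1* knockdown worms by protein and lifespan assays. From a pathway analysis of its RNA-seq it also reported induced autophagy functions and an induced AMPK pathway. Transcripts of the autophagy, AMPK and TOR genes listed here had medians near that of all genes. Of 29 autophagy genes, 24 were on the higher side over the 6 libraries and 14 without replicate 1, against 49.1% and 45.9% of all genes. None reached unadjusted p under 0.05 over the 6 libraries. Without replicate 1, 1 did (3.45%, against 6% of all genes lower), *unc-51*, the ULK kinase, on the lower side. The medians were 0.05 over the 6 libraries and -0.03 without replicate 1. *lgg-1*, the Atg8 homologue, had 763, 523 and 543 TPM under knockdown, against 508, 569 and 512 TPM on EV. *sqst-1*, the p62 homologue, had 57.3, 17.6 and 22.2 TPM under knockdown, against 23.2, 22.7 and 31.9 TPM on EV. In both, replicate 1 was far above the other libraries, and replicates 2 and 3 of *lgg-1* lay within the EV range while those of *sqst-1* lay below it. The study reported raised transcript of both genes by qPCR after ubiquitous knockdown. In the libraries here only replicate 1 was above EV. Of 23 AMPK and TOR genes none reached unadjusted p under 0.05 over the 6 libraries. Without replicate 1, 1 did (4.35%, against 0.856% of all genes higher), *nprl-3*, on the higher side. The medians were -0.01 over the 6 libraries and 0.00 without replicate 1. *aak-2*, the AMPK catalytic subunit, had 26.6, 24.1 and 21.7 TPM under knockdown, against 22.9, 22.2 and 21.4 TPM on EV. *rsks-1*, the S6 kinase, had 114, 117 and 113 TPM under knockdown, against 119.9, 115 and 117 TPM on EV. These measure transcript level and say nothing of phosphorylation or autophagic flux.

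Of 80 histone genes 43 were tested, with medians of 0.08 over the 6 libraries and -0.01 without replicate 1. Without it, 1 gene (2.33%, against 6% of all genes) was lower at unadjusted p under 0.05. *his-9* had 2.60, 0.494 and 1.121 TPM under knockdown, against 1.39, 0.872 and 0.919 TPM on EV. *his-58* had 18.9, 31 and 18.2 TPM under knockdown, against 28.8, 21.6 and 21.8 TPM on EV, and *his-43* was under the filter. Histone genes are near-identical copies and their transcripts largely lack poly(A) tails, so their values in a poly(A) library are uncertain. *dot-1.1*, a histone H3 methyltransferase, had 89.1, 87.1 and 85.2 TPM under knockdown, against 91.4, 85.3 and 86.3 TPM on EV, and *dot-1.2* was listed at 0, 0.112 and 0.0664 TPM under knockdown and at 0 in each EV library. *gmd-2*, *scl-14* and ZK697.8 were listed at 0 in all knockdown libraries and under 0.15 TPM on EV and were not tested.

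The large housekeeping lists were flat. The 80 cytosolic ribosomal protein genes had medians of 0.03 over the 6 libraries and 0.01 without replicate 1, the 47 nuclear genes of the respiratory chain and ATP synthase 0.01 in both, and the 40 genes of RNAi and the Argonautes -0.02 and 0.01. Of 33 proteasome genes, 1 (3.03%) was higher in both comparisons at unadjusted p under 0.05, against 0.376% and 0.856% of all genes. It was *pbs-7*, a beta subunit, with 375, 366 and 373 TPM under knockdown, against 347, 347 and 351 TPM on EV. It did not pass the adjustment in either comparison. Of 86 cytochrome P450, GST and UGT genes, the enzymes of detoxification, 68 were on the lower side without replicate 1, against 54.1% of all genes. Unadjusted p under 0.05 was reached by 13 (15.1%, against 6% of all genes lower). Over the 6 libraries it was reached by 1 (1.16%, against 1.28%). *cyp-34A9* had 16.5, 13.2 and 13 TPM under knockdown, against 18.3, 16.8 and 18.7 TPM on EV. Of 40 transthyretin-related genes, a family of secreted proteins, 36 were on the lower side without replicate 1. At unadjusted p under 0.05, 10 (25%) were lower without it, against 6% of all genes, and 0 over the 6 libraries. The medians were -0.27 without replicate 1 and 0.09 with it. *ttr-41* had 94.8, 57.2 and 63.5 TPM under knockdown, against 85.3, 77.1 and 93.4 TPM on EV. Of 115 nuclear hormone receptors, 91 were on the lower side without replicate 1 and 5 (4.35%, against 6% of all genes) were lower at unadjusted p under 0.05, with a median of -0.10, against 0.05 with all 6 libraries.

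No gene passed the adjustment on the higher side in either comparison. Genes above EV in all 3 knockdown libraries were ranked only where their mean over the 6 libraries was at least 5 TPM. The largest difference among them was that of Y44E3A.1, with 17.7, 6.24 and 6.88 TPM under knockdown, against 3.23, 4.48 and 3.47 TPM on EV. It reached that mean only through knockdown replicate 1. Its log2 difference was 1.12 (SE 0.37) over the 6 libraries and 0.68 (SE 0.16) without replicate 1, with adjusted p of 1.00 and 0.29. F46F2.3 had 14.8, 7.90 and 10.2 TPM under knockdown, against 6.03, 6.14 and 7.63 TPM on EV. *fahd-1*, of the fumarylacetoacetate hydrolase family, had 38.9, 25.5 and 25.6 TPM under knockdown, against 21.2, 19 and 24.8 TPM on EV. In all of these, replicate 1 was the highest library; without it the log2 differences of F46F2.3 and *fahd-1* were 0.40 and 0.24. *col-160*, a cuticle collagen, was under 5 TPM in mean and so was not ranked. It had 5.39, 5.27 and 5.61 TPM under knockdown, against 4.28, 4.05 and 2.60 TPM on EV, and here the knockdown libraries were nearly equal. On the lower side, besides the vitellogenins, F31F7.1 had 20.2, 17.1 and 17.9 TPM under knockdown, against 29.9, 24.9 and 28.1 TPM on EV, F53A9.8 had 25.2, 15 and 12 TPM under knockdown, against 34, 34 and 25.6 TPM on EV, and Y50D4A.10 had 4.39, 5.01 and 3.48 TPM under knockdown, against 7.23, 7.77 and 8.13 TPM on EV. None of them passed the adjustment in either comparison.

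The response in N2 was set against that in TU3401, whose strain, onset of RNAi and labelled day all differ from N2, so that these cannot be told apart. The age of the TU3401 worms is uncertain, since the labels and the study's methods differ on it. Of 13383 genes in a fit over the 12 libraries, the difference of the differences passed adjusted p under 0.05 in 1 gene (0.00747%), *rpia-1*. It fell by 1.97 on the log2 scale in N2, and the change in TU3401 was -0.26, a difference of -1.72 (SE 0.14, adjusted p = 0.0005 by limma). The 16 further genes called in N2 without replicate 1 did not pass this test. *lipl-5* changed by -0.68 in N2 without replicate 1 and by 0.05 in TU3401, a difference of -0.73 (SE 0.15), and *cpr-6* by -0.56 and 0.02, a difference of -0.58 (SE 0.16). *clec-50* had a difference of -0.55 (SE 0.11) and F54D5.3 one of -0.53 (SE 0.11), and the lowest adjusted p of the 16 was 0.79. *dod-6* had values of -0.52 in N2 without replicate 1 and -0.76 in TU3401, a difference of 0.24 (SE 0.56).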

How the data were processed

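RNA-seq libraries were made from whole worms with a poly(A)-based stranded kit and sequenced as paired 150-base reads. The submitters' processing notes list, in no order, Trimmomatic 0.36, MultiQC 1.12, featureCounts 1.6.2, FastQC 0.11.9 and HISAT2 2.2.1; the genome build is not given in the sources used here. The authors deposited 1 value a gene and library as TPM and as FPKM (fragments scaled to transcript length and library size). The deposited columns headed TPM do not sum to the total that defines TPM, so they were treated as a signal; they differ from FPKM by 1 factor a library, and depth in reads is unknown. Precision is therefore judged from the spread of 3 samples a group, collected separately.

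Groups came from the sample labels. Genes averaging 1 TPM or more in the 6 libraries were tested on log2(TPM + 1) with limma 3.58.1 (trend, R 4.3.3), with p-values adjusted by Benjamini-Hochberg over all of them, with all 6 libraries and without knockdown replicate 1; a log2 difference on this scale understates the change of low genes. The script was tested on simulated data. Tables and figures used Python 3.11.15, numpy 2.4.6, pandas 2.3.3 and matplotlib 3.10.9, and positions and biotypes come from Ensembl release 115. A list is described by its counts and median, with no test of the list. Named were *rpia-1* and its pathway, every gene called, up to 4 members a list with the smallest p, the 10 highest and lowest in knockdown replicate 1, the 10 largest rises and falls without overlap, of mean at least 5 TPM, and genes the study names; T20D3.2 and C42D4.1 were added as the next by adjusted p, after their values were seen. The genes and lists were chosen with earlier results of these data known. Alternatives were FPKM, pseudocounts of 0.1 and 5, no filter, a minimum of 5 TPM, equal library medians, sample weights, a replicate block and each library left out.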

Additional observations from a re-analysis of the deposited data

Results flagged for a closer look

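In the test of strain by knockdown, *rpia-1* was the only gene to differ. Its change was -1.97 on the log2(TPM + 1) scale in N2 and -0.26 in TU3401, a difference of -1.72 (SE 0.14) with all libraries and of -1.65 (SE 0.14) without N2 knockdown replicate 1, with adjusted p of 0.0005 and 0.0011 by limma over 13383 genes. Strain, onset of RNAi and labelled day differ together, and the labels and the study's methods differ on the day of TU3401. Single genes were not searched for outlying libraries by a formal test, since each group holds 3.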

How the results depend on the processing

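*rpia-1* kept its call in 14 of 14 alternatives. The single call over the 6 libraries became 2 with no filter and 282 with sample weights (254 lower and 28 higher, in a weight estimate that stopped before it converged), and was 1 to 17 when a library was left out (17 without knockdown replicate 1, 2 without EV replicate 3). The 17 calls without knockdown replicate 1 became 41 with FPKM (38 lower, 1 shared), 36 with no filter (8 lower, 4 shared), 34 with a minimum of 5 TPM, 37 with sample weights and 33 with the filter taken over 5 libraries (the 34, 37 and 33 each held all 17), and 4 with equal medians (*rpia-1*, *lipl-5*, *cpr-6* and F54D5.3); 1 to 14 passed when a further library was left out. At unadjusted p under 0.05, the counts over the 6 libraries were 1326 lower and 787 higher with sample weights. With FPKM, 522 genes lay below EV without overlap and 30 above, the median of all genes moved to -0.12 over the 6 libraries and -0.14 without replicate 1, and the TPM to FPKM factor was 1.39 in EV replicate 2 and 1.84 to 1.93 in the others; with a minimum of 5 TPM 132 lay above. The difference between strains gave 0 calls with FPKM, an alternative chosen after seeing the data. The cause was not tested. No direction reversed among the called genes. The median of the vitellogenins over the 6 libraries stayed between -0.62 and -0.37 and that of the lysosomal proteases without replicate 1 between -0.59 and -0.39. Across genes, same-numbered libraries deviated from their group means with r of -0.44, 0.04 and -0.41. Knockdown replicate 1, which stood apart, weighs on all of these values, since each group mean holds 3 libraries. They therefore cannot show whether the numbers pair the libraries. With the replicate block 1 of the 17 calls remained.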

Other observations

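*frm-1*, a gene of the FERM domain family, had 19, 89.8 and 88.6 TPM in knockdown replicates 1 to 3, against 20.1, 82.5 and 82.5 TPM in EV replicates 1 to 3. It was the only tested gene in which both libraries numbered 1 were at least 1 log2 unit below the other 4, and no gene was above them by that much. *hpo-3*, of the few genes lowest in knockdown replicate 1, had 144, 242 and 234 TPM under knockdown, against 252, 243 and 222 TPM on EV.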
